A study of Homo sapiens with 12 samples.

Results

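Neurotransmitter receptors are the membrane proteins through which neurons sense glutamate, GABA, glycine, acetylcholine and serotonin. Their genes were chosen by symbol from the RefSeq protein-coding genes of GRCh38 (GRIA, GRIK, GRIN, GRID, GRM, GABR, GLRA, CHRN and HTR names), with no measured value in the rule. All but the GABR names had to carry a digit, so the subunit genes CHRND, CHRNE, CHRNG and GLRB fell outside the rule. The rule matched 83 of 20037 genes on the chromosomes. Of these, 78 encode receptor subunits, and 5 match by spelling alone: HTRA1, HTRA2, HTRA3 and HTRA4, which encode serine proteases, and GRID2IP, which encodes a scaffold protein. The counts below are of the 78 receptor genes, and the spelling matches are given apart.

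The cells were HepG2/C3A, a single human hepatocellular carcinoma line, so no neuron was sampled. One group grew for 48 h with sodium succinate added to the medium at 10 mM, and the control group was kept for the same time. CUT&Tag, in which an antibody directs a transposase to chromatin, was done with antibodies to H3K27me3 (histone H3 trimethylated at lysine 27) and to succinylated lysine of any protein (pan-Ksu, here Ksu). Each combination of antibody and treatment had 2 biological replicates, 8 libraries in all, and the 4 IgG samples were not analysed here, so no value has an antibody background beside it.

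Most of these proteins are ion channels that open when a transmitter binds, and many of these channels are put together from subunits encoded by separate genes. The metabotropic glutamate receptors and most serotonin receptors signal through G proteins instead. H3K27me3 is laid down by the Polycomb repressive complex PRC2, often over long domains at developmental and neuronal genes that a cell type does not use. Succinylation adds a bulky, negatively charged group to lysine, and succinate fed to cells is a source of it.

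The amount measured was the covered share, the percent of gene-body bases lying under peaks. Values of 4 libraries are given in the order control replicate 1, control replicate 2, succinate replicate 1, succinate replicate 2. The lists differed widely in length. They held 19133, 5813, 9985 and 5531 peaks for H3K27me3 and 76702, 382019, 294568 and 629903 for Ksu. The weakest peak kept in each list, its floor, had a total signal (counted in the smallest signal step of that library) of 51892, 211123, 132374 and 330249 steps for H3K27me3. For Ksu it was 8977, 76.0, 4247 and 49.0 steps. The number of reads is unknown. Of 14 hepatocyte marker genes, 14 had no H3K27me3 peak in any library, and of 10 neuronal marker genes, 8 had none and 1 had one in all 4 libraries. Over all genes, 75% had none and 12.3% had one in all 4 libraries, so the neuronal marker counts are near the background.

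The promoters of 5 genes show the kinds of gene that the results turn on. Each line is the 250 bases before the gene start in RefSeq (GRCh38.p14), read in the direction of transcription, with CG dinucleotides in capitals. CG is its own reverse complement, so both strands give the same count. The starts of GRM4 (chr6:34146088-34146337, minus strand), HTR6 (chr1:19664625-19664874, plus strand) and HTR3C (chr3:184052797-184053046, plus strand) lay in H3K27me3 peaks of all 4 libraries. The start of CHRNA9 (chr4:40335083-40335332, plus strand) lay in a peak of both control libraries only. GRM7 (chr3:6860865-6861114, plus strand) had no H3K27me3 peak anywhere on its gene body.

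GRM4: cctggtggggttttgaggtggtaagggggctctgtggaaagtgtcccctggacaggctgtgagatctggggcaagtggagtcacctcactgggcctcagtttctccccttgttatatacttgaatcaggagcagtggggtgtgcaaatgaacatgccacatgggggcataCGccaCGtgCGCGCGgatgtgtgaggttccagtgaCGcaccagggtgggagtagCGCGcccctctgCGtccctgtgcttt
HTR6: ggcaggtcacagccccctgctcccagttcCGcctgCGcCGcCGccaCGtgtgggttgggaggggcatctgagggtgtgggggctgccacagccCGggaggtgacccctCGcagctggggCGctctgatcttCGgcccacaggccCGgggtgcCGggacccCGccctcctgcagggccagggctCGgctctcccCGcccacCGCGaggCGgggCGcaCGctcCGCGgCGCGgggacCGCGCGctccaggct
HTR3C: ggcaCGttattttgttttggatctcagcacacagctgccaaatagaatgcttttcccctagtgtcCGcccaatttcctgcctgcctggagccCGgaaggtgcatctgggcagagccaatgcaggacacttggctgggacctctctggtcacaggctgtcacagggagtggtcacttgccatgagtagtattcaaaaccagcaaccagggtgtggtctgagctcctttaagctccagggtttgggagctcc
CHRNA9: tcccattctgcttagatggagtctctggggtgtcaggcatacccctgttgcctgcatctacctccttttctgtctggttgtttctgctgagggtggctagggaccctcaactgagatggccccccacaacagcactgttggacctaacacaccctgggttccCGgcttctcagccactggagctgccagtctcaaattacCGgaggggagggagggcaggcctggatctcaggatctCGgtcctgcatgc
GRM7: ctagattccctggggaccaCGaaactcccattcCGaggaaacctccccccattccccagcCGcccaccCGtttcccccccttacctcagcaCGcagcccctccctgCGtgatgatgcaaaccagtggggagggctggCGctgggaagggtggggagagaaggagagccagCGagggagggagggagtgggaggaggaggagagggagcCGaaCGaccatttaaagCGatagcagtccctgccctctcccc

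The windows of GRM4, HTR6, HTR3C, CHRNA9 and GRM7 hold 9, 26, 3, 3 and 11 CG. A start was listed for 58 of the 78 receptor genes. The median CG count was 26 for the 8 receptor starts under H3K27me3 in all 4 libraries and 10 for the 32 receptor starts under no H3K27me3 peak. Over all 15842 genes with a start the order was the other way, with medians of 15 and 18. At least 1 CG was present in 96.9% of all these windows, and at least 10 in 68.6% of them and in 55.2% of the receptor windows.

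By H3K27me3 the receptor genes fell into 17 with peaks in every library, 24 with peaks in 1 to 3 libraries and 37 with none. A peak touched 17 of 78 receptor genes (21.8%) in all 4 libraries, where 12.3% of all genes were so covered. The 96 potassium channel genes (KCN symbols) had more H3K27me3, with peaks in all 4 libraries on 35 (36.5%). Their covered share was 17.8%, 12.9%, 15.5% and 14.2%. No library had a peak on 37 receptor genes (47.4%), against 75% of all genes. The lists of control replicates 1 and 2 and succinate replicates 1 and 2 touched 41, 21, 27 and 19 of the 78 receptor genes. Of all genes they touched 23.4%, 13.6%, 19.1% and 15.5%. The median length was 29.6 kb for the 17 genes with H3K27me3 throughout and 88.3 kb for the 37 without. Among the 33 receptor genes of at least 100 kb, 5 had peaks in all 4 libraries (14.2% of all genes of that length) and 18 had none (66% of all genes of that length).

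**Figure D1:**
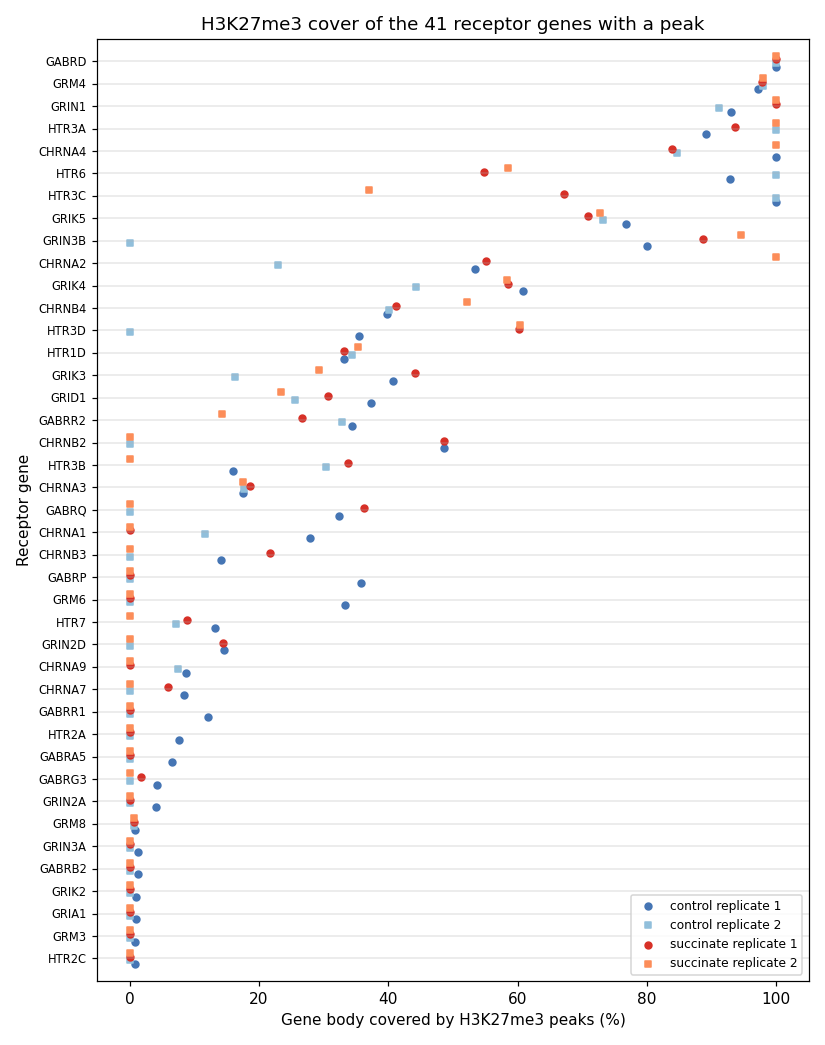
Gene-body cover by H3K27me3 peaks (x axis, percent) for the 41 receptor genes with a peak in any library (y axis), 1 point per library. GABRD is at 100% in all 4 libraries, GRM8 is under 1% in all 4, and HTR6 and HTR3C lie lower in both succinate libraries than in both controls.

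The kainate receptors, glutamate-gated channels of the GRIK genes, had the largest covered share of the 9 subfamilies, 24.1%, 16.2%, 23.3% and 21.5%. Peaks in all 4 libraries lay on 3 of their 5 genes. GRIK5, a subunit that joins others to make a working channel, was covered over 76.8%, 73.2%, 71.0% and 72.7%. GRIK4, a subunit of the same kind, was covered over 60.8%, 44.2%, 58.5% and 58.4% of 477 kb, in 23, 9, 14 and 11 separate peaks. GRIK3, which forms channels on its own, was covered over 40.8%, 16.3%, 44.2% and 29.3%. In each of these the treatments overlapped, apart from GRIK5. GRIK1 had no peak, and GRIK2 had 2 in control replicate 1 alone, over 0.969% of the gene.

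The nicotinic acetylcholine receptors came next, with 19.6%, 10.8%, 17.5% and 15.6% of their gene bodies under H3K27me3. Of the 13 genes that the rule matched, 4 were covered in all libraries and 4 in none. Outside the rule, CHRND and CHRNG had peaks in all libraries and CHRNE in none. CHRNA4, with CHRNB2 the main partner in brain nicotinic receptors, was covered over 100%, 84.7%, 83.9% and 100%. Its widest peak measured 48.5, 87.2, 46.7 and 266.8 kb, and in succinate replicate 2 that peak was in the top 0.054% of the list by total signal. CHRNB2 itself was covered over 48.7% and 48.6% in the first replicates of control and succinate and not at all in the second replicates. CHRNA3 and CHRNB4, neighbours on chromosome 15 that form the ganglionic receptor, shared a single peak of 23, 23.1, 23.8 and 27.6 kb. The third gene of that cluster, CHRNA5, had none.

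The other glutamate receptors were covered less, and unevenly. The 4 AMPA receptor genes (GRIA1 to GRIA4), which carry most fast excitation in the brain, had 0.265% under a peak in control replicate 1, on GRIA1, and 0 in the other libraries. Of the 7 NMDA receptor genes, GRIN1, the subunit that every NMDA receptor needs, was covered over 93.0%, 91.2%, 100% and 100%. GRIN2B had no peak, and GRIN2A had 3 in control replicate 1 alone, over 4.02% of the gene. GRIN3B, a glycine-binding subunit, was covered over 80.0%, 0, 88.7% and 94.5%.

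GRM4, a presynaptic metabotropic receptor of 137 kb at chr6:34018643-34155622, was covered over 97.1%, 97.9%, 97.8% and 98%. Its widest peak measured 64.2, 84.8, 85.7 and 97.1 kb, within the top 1.86% of each list by total signal. GRM8, of the same functional group but 814 kb long, had 1 peak over its start and cover of 0.841%, 0.592%, 0.589% and 0.589%. GRM2, GRM5 and GRM7 had none. GRID1, one of the 2 delta receptor genes, was covered over 37.3%, 25.5%, 30.6% and 23.4% of 767 kb.

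Among the inhibitory receptors, cover was concentrated in a few genes. GABRD, a GABA-A subunit of receptors outside the synapse, lay wholly under H3K27me3 in all 4 libraries, inside single peaks of 46.3, 38.8, 65.1 and 65.0 kb. GABRR2, of the rho subunits first known from the retina, was covered over 34.4%, 32.9%, 26.7% and 14.4%. Of 19 GABA-A genes 11 had no peak, and the 3 glycine receptor genes had none. Some GABA-A genes that lie in clusters were nearly bare: the 1391 kb from GABRG1 to GABRB1 on chromosome 4 had no peak, and the chromosome X cluster (GABRE, GABRA3, GABRQ) had 0.965%, 0, 1.24% and 0 of 706 kb under one.

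Of the 17 serotonin receptor genes, 4 had peaks in all libraries and 8 had none. Together they had H3K27me3 over 6.73%, 6.11%, 5.89% and 3.53%, lower in both succinate libraries, which did not hold with equal numbers of peaks. HTR3A, the subunit that every serotonin-gated channel needs, was covered over 89.1%, 100%, 93.6% and 100%. HTR1D, a G protein-coupled receptor, was covered over 33.1%, 34.5%, 33.1% and 35.2%, and the treatments overlapped. The spelling matches had more H3K27me3 than any receptor subfamily, 72.4%, 73.4%, 76.4% and 77.7%. HTRA1 was covered over 94.4%, 96.4%, 96.5% and 100%, HTRA3 over 73.3%, 73.1%, 80.6% and 81.2%, and GRID2IP over 74.9%, 76.0%, 79.9% and 79.9%, whereas HTRA2 and HTRA4 had no peak.

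**Figure D2:**
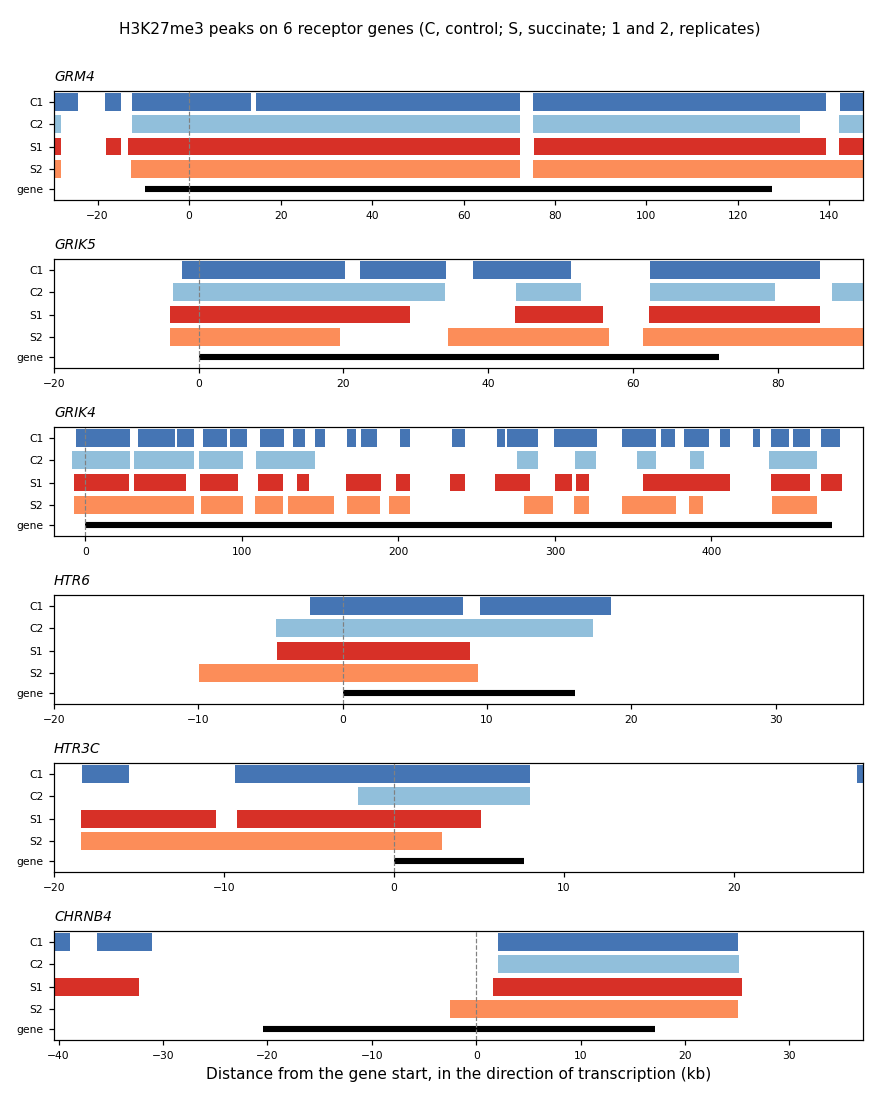
H3K27me3 peaks (coloured blocks, 1 row per library) over 6 receptor genes (black bar, gene body). The x axis is the distance in kb from the gene start in the RefSeq promoter table, which for GRM4 and CHRNB4 lies inside the gene body. In HTR6 and HTR3C the peaks of both succinate libraries end inside the gene, and in GRM4 the blocks of all 4 libraries span almost the whole gene. In HTR6 the start peak of control replicate 1 also ends inside the gene, at 8.3 kb, and a second peak covers the gene end.

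Gene starts lie within the gene bodies, so genes with a start in a peak in all 4 libraries are among the 17 genes above. Of 58 receptor genes with a listed start, 8 (13.8%) had it in an H3K27me3 peak in all 4 libraries, against 7.31% of all genes: GRIK4, GRIK5, GRM4, GRM8, CHRNA3, HTR1D, HTR3C and HTR6. Singly, the libraries had 24, 9, 13 and 10 receptor starts in a peak, some of them on genes outside the 17. These are 41.4%, 15.5%, 22.4% and 17.2% of the receptor starts, against 15.3%, 8.45%, 12.6% and 10.1% of all starts. No receptor start lay in a Ksu peak in all 4 libraries, and over all genes the share was 0.00631%.

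The second question was whether succinate changed H3K27me3 on the receptor genes. Over all 78 genes together the covered share was 8.40%, 5.70%, 7.30% and 6.20%, and the treatments overlapped. The mean log2 difference, succinate minus control, was -0.041 (pooled SD of the replicates 0.30, n = 2 per group, exact two-sided permutation p = 1). With 2 libraries a group there are 6 arrangements and the smallest p possible is 0.333, so no comparison of this kind could pass 0.05. These p-values rank the difference between the groups among the 6 arrangements. The pooled SD gives the spread between the 2 cultures of each group. Divided by the share of all gene bodies (7.07%, 4.60%, 6.30% and 5.31%), the receptor share was 1.19, 1.24, 1.16 and 1.17. That ratio was lower in both succinate libraries, with a log2 difference of -0.061 (pooled SD 0.031, exact permutation p = 0.333, 0.667 adjusted over 4 tests). Among genes of at least 100 kb the difference was 0.064 with overlapping groups, and among shorter genes -0.24.

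Single genes moved both ways. Cover was lower in both succinate libraries than in both controls for 7 receptor genes (8.97%, against 1.13% of all genes) and higher for 5 (6.41%, against 3.71% of all genes). The lower ones were GABRR2, GRIK5, GRM8, CHRNA1, CHRNA9, HTR3C and HTR6, and the higher ones GRIN1, GRIN3B, CHRNA2, CHRNB4 and HTR3D. When every list was cut to its 5531 peaks of highest total signal, 3 of the 7 (HTR3C, GABRR2 and GRM8) and 4 of the 5 (all but HTR3D) were still so ordered. In all, the cut lists gave 3 lower and 6 higher receptor genes, with no share of all genes beside them. GRM8 was close to a tie. Its cover in control replicate 2 was almost that of the succinate libraries, where its peak was wider (10.7 kb against 11.7 and 11.8 kb).

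HTR3C, a subunit of the serotonin-gated channel, showed the largest loss in mean cover. It was covered over 100%, 100%, 67.2% and 37.0%, a difference of -47.9 percentage points. In every library 1 peak crossed its start, and in the succinate libraries that peak ended inside the gene. In control replicate 2 the peak ranked in the top 94.8% by total signal, close to the lowest of its list. HTR6, a G protein-coupled serotonin receptor, followed with 92.8%, 100%, 54.7% and 58.4%, but with equal numbers of peaks control replicate 1 had 51.7% and the groups overlapped.

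CHRNA1, a subunit of the muscle receptor, was covered over 28.0%, 11.6%, 0 and 0, and CHRNA9, best known from the hair cells of the inner ear, over 8.71%, 7.45%, 0 and 0. They were the only 2 receptor genes with peaks in both control libraries and in neither succinate library, a pattern found in 0.145% of all genes. With equal numbers of peaks no receptor gene had this pattern, and without control replicate 2 there were 14. No receptor gene showed the reverse pattern, found in 0.279% of all genes. GABRP and GRM6 had cover of 35.7% and 33.2% in control replicate 1 alone, the library with the lowest floor. GABRP kept its 35.7% there with equal numbers of peaks, under a 36.1 kb peak in the top 5.96% by total signal. The GRM6 peak ranked in the top 62.6%. Why these peaks were in 1 library was not tested.

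The largest gains rested on single libraries. GRIN3B (80.0%, 0, 88.7% and 94.5%) and HTR3D (35.5%, 0, 60.2% and 60.4%) had no peak in control replicate 2, and their mean gains were 51.6 and 42.5 points. CHRNA2, a subunit of some brain receptors, was at 53.3%, 22.9%, 55.2% and 100%, a gain of 39.4 points. The gains of GRIK3, GRIN1 and CHRNB4 were 8.2, 7.9 and 6.7 points, and those of GRIK3 lay within overlapping groups. The serotonin channel genes HTR3D and HTR3C are neighbours on chromosome 3, and in succinate replicate 2 a single peak (chr3:184034645-184055867) reached across HTR3D into HTR3C.

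**Figure D3:**
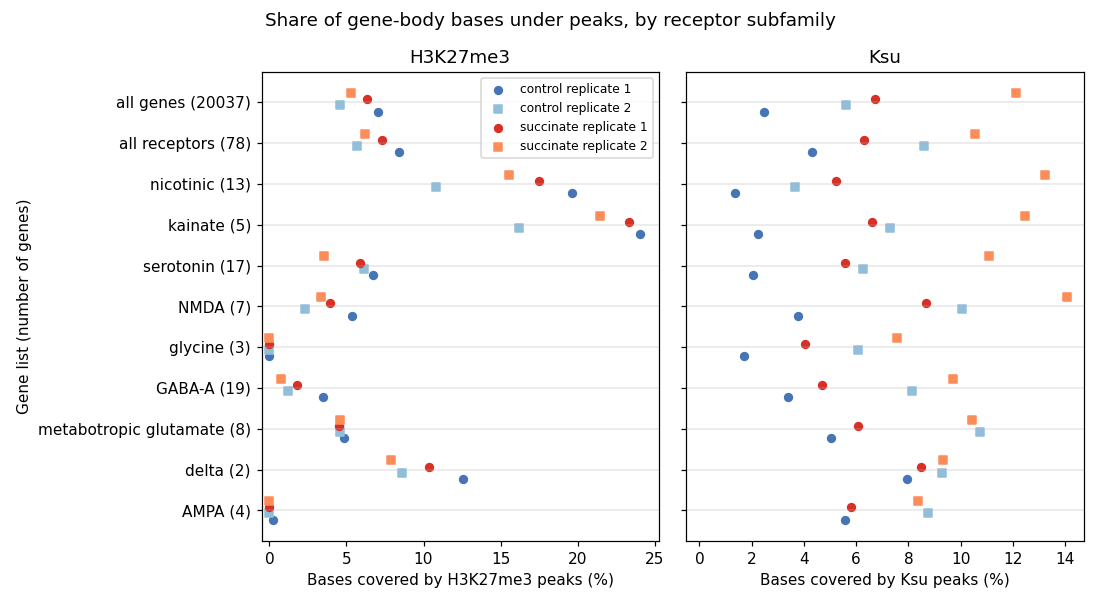
Percent of gene-body bases under H3K27me3 (left) and Ksu (right) peaks for the receptor subfamilies, all 78 receptor genes and all 20037 genes (y axis, number of genes in brackets), 1 point per library. Kainate and nicotinic genes have the highest H3K27me3 cover. In Ksu, of the 9 subfamilies, the nicotinic genes alone have both succinate libraries above both controls, which did not hold with equal numbers of peaks.

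Ksu was spread over the receptor genes in many short peaks, with a median width over all peaks of 977, 444, 582 and 469 bp. Peaks touched 46, 71, 72 and 78 of the 78 receptor genes, and 34.8%, 71.1%, 72.2% and 84.4% of all genes. In all 4 libraries they touched 46 genes (59.0%, against 31.7% of all genes). Among the 33 long receptor genes this held for 31, and among all genes of that length for 85.3%. No receptor gene was without Ksu in every library, against 9.97% of all genes. Both succinate libraries and neither control had a Ksu peak on 4 receptor genes (5.13%, against 7.63% of all genes), and the reverse was seen for none (0.0998% of all genes). Without control replicate 2 the 4 became 26.

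Among genes under 100 kb this pattern was found in 9.15% of all genes, and 8.89% of the receptor genes, so the count is near the background. Of the 4, HTR3C had Ksu cover of 0, 0, 15.8% and 32.5%, HTR1B 0, 0, 25.4% and 11.0%, HTR1A 0, 0, 15.4% and 18.4%, and HTR3E 0, 0, 9.5% and 4.56%. All 4 are under 10 kb, so each value stands for 1 to 4 peaks. HTR5A, of 17.1 kb, had 0, 2.55%, 6.40% and 31.2%. The largest loss in mean Ksu cover was that of GABRA6, a GABA-A subunit of the cerebellum, at 0, 17.8%, 0 and 4.1%, and it rested on control replicate 2.

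Ksu cover of the receptor genes as a whole was 4.30%, 8.61%, 6.32% and 10.5%. The controls and the succinate libraries interleaved, with a log2 difference of 0.42 (pooled SD 0.62, exact permutation p = 0.667, 0.889 adjusted). Over all gene bodies the share was 2.46%, 5.60%, 6.71% and 12.1%, without overlap. By gene, Ksu cover was higher in both succinate libraries for 27 receptor genes (34.6%, against 46.6% of all genes) and lower for 3, GABRP and CHRNA4 among them (3.85%, against 0.484% of all genes).

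Set against all gene bodies of the same library, Ksu cover of the receptor genes was 1.75 and 1.54 times the overall share in control and 0.941 and 0.869 times in succinate. The log2 difference was -0.86, which is larger than the pooled SD of 0.11, and both succinate libraries lay below both controls (exact permutation p = 0.333, the smallest possible, 0.667 adjusted over 4 tests). With equal numbers of peaks the difference was -0.95, and it kept its sign, with the groups apart, under the other peak selections tried.

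The ratio was also formed among genes of like length. Against all genes of at least 100 kb, the long receptor genes stood at 1.54, 1.38, 0.910 and 0.842 (log2 difference -0.73, pooled SD 0.096). Against all genes under 100 kb, the shorter receptor genes stood at 1.70, 1.41, 0.982 and 1.03 (-0.62, pooled SD 0.14). The reference itself moved: over all gene bodies, genes under 100 kb stood at 0.629, 0.680, 0.926 and 0.968. Against all gene bodies the shorter receptor genes therefore had overlapping groups, 1.07, 0.959, 0.909 and 0.994. Against their own 1 Mb flanks the receptor genes stood at 1.67, 1.39, 1.04 and 0.944 (-0.62, pooled SD 0.15).

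**Figure D4:**
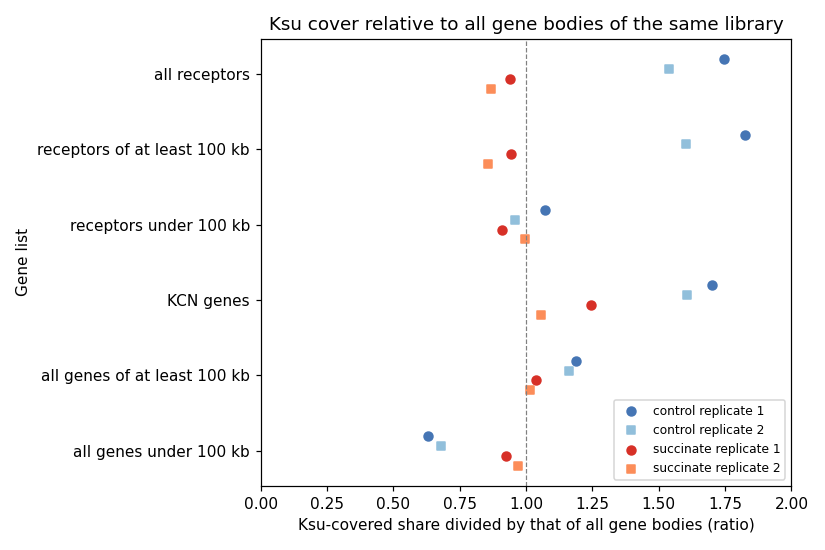
Ksu-covered share divided by the share of all gene bodies in the same library (x axis, ratio; dashed line, 1) for receptor genes, potassium channel (KCN) genes and genes by length (y axis), 1 point per library. All receptors stand at 1.75 and 1.54 (controls) and at 0.941 and 0.869 (succinate libraries), and the KCN genes and all long genes are also lower in succinate.

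The ratio was lower in succinate for other genes too. The 96 potassium channel genes, which also encode membrane proteins of excitable cells, stood at 1.70, 1.61, 1.25 and 1.06 (log2 difference -0.53, pooled SD 0.12), and all genes of at least 100 kb at 1.19, 1.16, 1.04 and 1.02 (-0.19, pooled SD 0.022). Receptor genes over potassium channel genes gave 1.03, 0.957, 0.755 and 0.822, a further difference of -0.33 (pooled SD 0.080). Each of these had an exact permutation p of 0.333. In control the receptor and potassium channel genes differed by little in Ksu cover, and in both succinate libraries the receptor genes had less.

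The subfamilies did not all behave alike. Relative to all gene bodies, metabotropic glutamate genes stood at 2.05, 1.92, 0.903 and 0.860 and GABA-A genes at 1.38, 1.45, 0.697 and 0.801. AMPA genes stood at 2.27, 1.56, 0.866 and 0.690. In these 3, and in the NMDA, delta and glycine genes, both succinate libraries were below both controls. The kainate genes, at 0.907, 1.30, 0.981 and 1.03, and the serotonin genes, at 0.836, 1.12, 0.831 and 0.916, had overlapping groups. The nicotinic genes went the other way, at 0.559, 0.651, 0.777 and 1.09, and their plain Ksu cover was 1.38%, 3.65%, 5.21% and 13.2%. With equal numbers of peaks the log2 difference of that plain cover went from 1.89 to 0.66 (pooled SD 0.92), and the groups overlapped.

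By gene, relative Ksu cover was lower in both succinate libraries for 21 receptor genes (26.9%, against 5.76% of all genes) and higher for 16 (20.5%, against 30.2% of all genes). Of the 33 long receptor genes 16 were lower (48.5%, against 17.3% of all genes of at least 100 kb) and 3 higher, where 35.6% of such genes were higher. The 21 included GRIA1, GRIN2B, GRIN3A, GLRA1, GRIK2, GRM3, GRM5, GRM7, GRM8 and several GABA-A genes. With equal numbers of peaks 20 of the 21 were still lower, all but CHRNA4, and against their own flanks 13 were. Of the 16 higher genes 8 were still higher with equal numbers and 12 against their flanks. In all, equal numbers gave 23 lower and 10 higher receptor genes. Against flanks 15 were lower and 16 higher, so the lean to lower genes was absent there. These counts have no share of all genes beside them.

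GRIA1, an AMPA receptor subunit at chr5:153489615-153813869, had the highest Ksu cover of its family in both controls. It was covered over 16.7%, 12.5%, 13% and 6.48%, in 45, 67, 57 and 43 peaks. Relative to all gene bodies that is 6.77, 2.23, 1.93 and 0.535, and both succinate libraries were below both controls. Cut to 76702 peaks per library the cover was 16.7%, 7.51%, 5.74% and 1.37%. Its 1 Mb flanks had 8.06%, 9.44%, 7.54% and 11.9%, and GRIA1 over its flanks had overlapping groups.

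Other genes of chromosome 5 stood close to it. GABRB2, a subunit of the most common GABA-A receptors, had Ksu cover of 8.48%, 15.7%, 4.84% and 8.49%, and GABRP, a GABA-A subunit found mostly outside the brain, 16.9%, 15.1%, 13% and 9.38%. Of the 10 receptor genes on chromosome 5, 7 were among the 21. Relative to all gene bodies, the 904 genes of chromosome 5 stood at 1.37, 1.19, 0.852 and 0.901, so the ratio was lower in succinate along the chromosome. Without chromosome 5 on either side the receptor genes stood at 1.58, 1.5, 0.908 and 0.876 (log2 difference -0.79).

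Long genes weigh heavily in a share of summed bases. GRM7, of 880 kb, had Ksu cover of 5.61%, 10.9%, 5.71% and 9.21%, and GRM8 3.25%, 9.80%, 5.13% and 10.4%. Both were in the lower group by relative cover, while their plain cover overlapped between treatments. GRID1 had 18.6%, 10.6%, 17.3% and 10.7%, high in the first replicate of either treatment. Without the 4 longest genes the log2 difference of relative cover was -0.68.

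**Figure D5:**
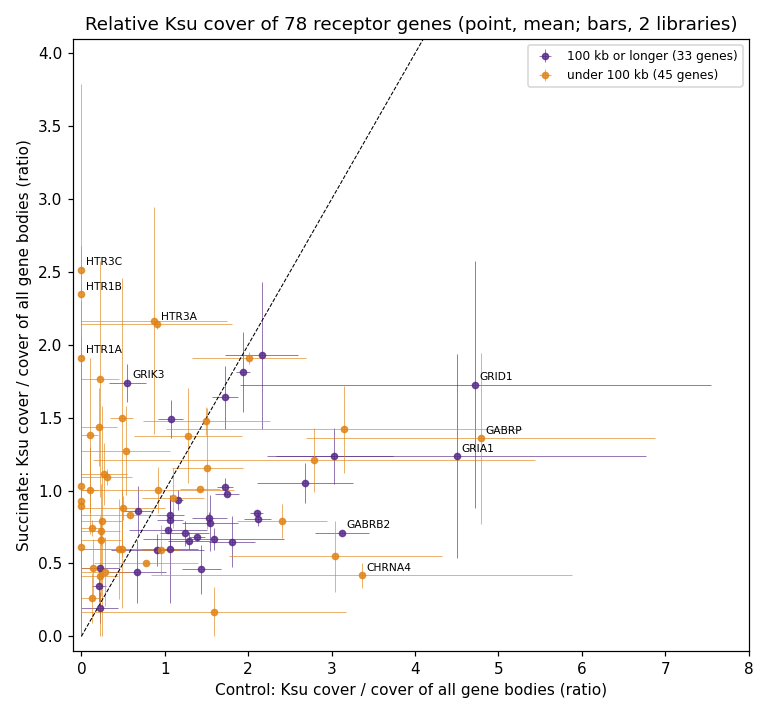
Mean relative Ksu cover (covered share of the gene over that of all gene bodies in the same library) in control (x axis) and succinate (y axis) for the 78 receptor genes. Bars join the 2 libraries of a group, the dashed line marks equal values, and colour marks length. GRIA1, GABRB2 and CHRNA4 lie below the line, and HTR3C, HTR1A and HTR1B lie at 0 in control.

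Of the 16 genes with higher relative Ksu cover in both succinate libraries, 8 had H3K27me3 in all 4 libraries. Another 5 had it in none and 3 in some, and the genes given next are among the 8. GRIK3 had Ksu cover of 0.817%, 4.33%, 12.6% and 19.4%, or 0.332, 0.773, 1.87 and 1.61 relative to all gene bodies. GRIK4 had 2.25%, 6.85%, 10.9% and 16.5%, GRIK5 0, 2.41%, 11.4% and 14.2%, and HTR3A 0, 10.1%, 14.1% and 26.3%. Against their own 1 Mb flanks GRIK5 and HTR3A were still higher in both succinate libraries, and GRIK3 and GRIK4 were not. Of the 17 receptor genes with H3K27me3 in all 4 libraries, 8 had higher relative Ksu cover in both succinate libraries (47.1%, against 31.5% of all genes in that state), 2 lower (11.8%, against 5.32%) and the rest overlapped. Of the 37 without H3K27me3 in any library, 5 were higher (13.5%, against 30.2% of all genes in that state) and 12 lower (32.4%, against 4.79%). The difference between the states was not tested. The states also differed in length, with 5 of the 17 genes and 18 of the 37 at least 100 kb long. Of the 16 higher genes 13 were under 100 kb, and of the 21 lower ones 16 were at least 100 kb. CHRNA4 was one of the 2 lower genes, with Ksu cover of 14.5%, 4.66%, 3.39% and 4.04%, and the single peak of control replicate 1 set its first value.

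Beside the receptor genes of the rule, 51 more genes of transmitter signalling were counted, receptor genes outside the rule among them. H3K27me3 peaks lay on 16 of them in all 4 libraries (12.3% of all genes) and on 20 in none (75% of all genes), and no gene had them in both libraries of 1 treatment and in neither of the other. SLC17A7 and SLC32A1, the vesicle transporters that load glutamate and GABA, SLC18A3, which loads acetylcholine, and CHRND, a muscle receptor subunit, lay wholly under H3K27me3 in all 4 libraries. CHAT, which makes acetylcholine, was covered over 82.0%, 71.9%, 76.3% and 75.1%, and GABBR1, a subunit of the G protein-coupled GABA receptor, over 64.7%, 81.5%, 74.6% and 49.5%. Ksu cover of these 51 genes was 2.60%, 7.5%, 7.08% and 12.4%, so in plain cover the succinate and control libraries overlapped as in the receptor genes. Over all gene bodies it was 2.46%, 5.60%, 6.71% and 12.1%. The ratio to all gene bodies, in which the receptor groups were apart, was not compared for these 51 genes.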

How the data were processed

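Peaks were called with SEACR on hg38, per the submitters' processing notes. The deposited lists give, for each peak and library, the authors' total signal and highest signal. The aligner, signal scaling, control track and threshold are not given in the sources used here. Signal came in whole steps whose size differed between libraries (tolerance 0.02), so signal was used to rank peaks within a list and, counted in steps, to set the floors. Peaks on 24 chromosomes were intersected with RefSeq gene bodies (GRCh38.p14), 1 bp or more counting as overlap, and covered bases were summed over genes and divided by summed lengths, with no pseudocount. Gene starts came from the RefSeq promoter table.

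The means of log2 shares were compared between treatments by exact permutation (two-sided, 6 arrangements), Benjamini-Hochberg adjusted over 4 tests, using Python 3.11.15, numpy 2.4.6, pandas 2.3.3 and scipy 1.17.1. The computation was tested on simulated peaks. Alternatives were equal numbers of peaks (5531 for H3K27me3, 76702 for Ksu), a common floor in steps (330249 and 8977), the top 50% of peaks, peaks of at least 500 bp, presence at 10% cover, the median over genes, a replicate block and leaving out each library. Long and short genes, flanks, chromosomes 5 and X and the 4 longest genes were added after seeing the data. The members and lists were chosen with earlier results of these data known. Genes named are those with the highest H3K27me3 cover (12), those touched in 1 treatment only, those with the largest gains and losses (6 per direction for H3K27me3, 4 for Ksu), the 4 longest, those in clusters and the spelling matches. Others named in lists, in the opening of a subfamily or as partners of these were chosen after their values were seen. Some genes and clusters that this rule names are not reported here.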

Additional observations from a re-analysis of the deposited data

How the results depend on the processing

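Over 26 results, 178 alternatives were run: 121 left the value within the replicate spread or the count within 1.5 times, 31 moved it further and 26 turned its sign. The causes were not tested. With a replicate block the 4 differences were the same as without it, -0.041 and -0.061 for H3K27me3 and 0.42 and -0.86 for Ksu, and the smallest exact p the block allows is 0.5. The labels do not say whether same-numbered control and succinate libraries were paired. Deviations of same-numbered libraries over 20037 genes correlated at 0.364 for H3K27me3 and 0.0869 for Ksu. Depth is unknown.

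Ksu cover relative to all gene bodies (-0.86) was -1.07 with a common floor, -1.03 with the top 50% of peaks, -0.73 among long genes, -0.62 among short genes, -0.62 against flanks, -0.68 without the 4 longest genes and -0.95 to -0.77 with 1 library left out. Plain Ksu cover (0.42) was -0.62 with equal numbers, 1.36 as a median over genes and -0.079 (without control replicate 1) to 0.92 with 1 library left out. Relative H3K27me3 cover (-0.061) was -0.0096 with a common floor, -0.19 with the top 50%, 0.064 among long genes, -0.24 among short genes, -0.094 against flanks and -0.011 without the 4 longest genes, and -0.091 to -0.031 with 1 library left out. Plain H3K27me3 cover (-0.041) was 0.13 with equal numbers and 0.41 with a common floor, and ran from -0.32 to 0.24, positive without control replicate 1 or succinate replicate 2.

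Receptor genes with H3K27me3 in succinate only (0) were 1 with equal numbers, 4 with a common floor and 0 to 2 with 1 library left out. Those in control only (2) were 0 with equal numbers, a common floor or the top 50%, 1 at 10% cover and 2 to 14, with 14 without control replicate 2 and 4 without succinate replicate 1. Those in all libraries (17) were 15 with equal numbers, 12 with a common floor, 12 with the top 50%, 16 at 10% cover and 17 to 19 with 1 library left out. Receptor genes with Ksu in all libraries (46) were 11 with a common floor, 1 at 10% cover and 46 to 68. Those with Ksu in succinate only (4) were 8 with peaks of at least 500 bp, 10 at 10% cover and 4 to 26, with 26 without control replicate 2 and 7 without succinate replicate 1.

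By subfamily, equal numbers moved the Ksu difference from 0.050 to -0.71 for delta, from 0.11 to -0.99 for metabotropic glutamate, from 0.36 to -1.01 for GABA-A, from 0.78 to -0.60 for glycine, from -0.0044 to -1.18 for AMPA, from 1.17 to 0.066 for kainate, from 1.89 to 0.66 for nicotinic and from 1.13 to 0.12 for serotonin genes. They moved the H3K27me3 difference of serotonin genes from -0.49 to 0.12. With 1 library left out, Ksu ran from -0.33 to 0.32 for AMPA, -0.063 to 0.16 for delta, -0.43 to 0.66 for metabotropic glutamate, -0.27 to 0.99 for GABA-A and -0.13 to 1.69 for glycine genes. H3K27me3 ran from -0.10 to 0.47 for kainate, -0.57 to 0.63 for NMDA, -0.48 to 0.067 for delta and -0.25 to 0.61 for nicotinic genes. A median over genes could not be computed for H3K27me3, where it is 0, nor for the relative Ksu cover.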

Other observations

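Ksu cover was also compared between receptor genes by their H3K27me3 state, a comparison chosen after the values were seen. The 17 receptor genes with H3K27me3 in all 4 libraries had Ksu over 7.07%, 8.33%, 11.1% and 13% of their bases, and the 37 with none had 3.28%, 8.79%, 4.68% and 9.59%. The ratio of these shares was 2.16, 0.948, 2.36 and 1.36, and the treatments overlapped. Among receptor genes under 100 kb the ratio was 0.503, 0.601, 1.59 and 1.35, with both succinate libraries above both controls (log2 difference 1.42, pooled SD 0.17, exact permutation p = 0.333, the smallest possible). Among all genes under 100 kb it was 2.13, 1.62, 1.88 and 1.38, with overlapping treatments. The short receptor genes compared were 12 with H3K27me3 throughout and 19 with none, several of them neighbours.

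The chromosome 15 cluster of CHRNA5, CHRNA3 and CHRNB4 (96.1 kb) had H3K27me3 over 23.9%, 24%, 24.8% and 28.7% and Ksu over 0, 2.62%, 4.90% and 13.8%. Both marks were higher in both succinate libraries than in both controls there. In the chromosome 3 cluster of HTR3D, HTR3C and HTR3E (75.5 kb) H3K27me3 cover was 35.2%, 13.4%, 29.5% and 28.1%, with overlapping treatments, and Ksu cover was 2.15%, 1.24%, 6.84% and 16.0%, without overlap. The 1391 kb of GABRG1, GABRA2, GABRA4 and GABRB1 on chromosome 4, with no H3K27me3 peak, had Ksu over 2.20%, 9.52%, 4.56% and 9.23%, with overlapping treatments.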
